A study of Mus musculus with 11 samples.

Results

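A group of 6 genes whose known expression is mainly in blood cells were followed in RNA from a cardiac fibroblast preparation: the beta-globin genes Hbb-bs and Hbb-bt, and the leukocyte genes Ly6c2, Cd300ld4, Gm15448 and Evi2. These genes were picked by symbol, with their difference between the 2 genotypes already known, and make up 6 of the 1293 complete genes of the table held. Their values in that comparison are therefore given as a description, without a test.

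Poly(A) RNA was sequenced from fibroblasts of the injured left ventricle of mouse hearts 3 days after myocardial infarction, in 6 control and 5 Pw1 CKO libraries. Pw1 is another name of Peg3, an imprinted zinc finger gene, and the series asked what it does to matrix genes in these cells. Controls 1 to 3 were labelled wild type, Pw1fl/+ or Pw1fl/fl without saying which library is which, and controls 4 to 6 were labelled Pw1 fl/fl; no control label names a Cre. CKO 1 to 3 were labelled Pdgfra-Cre;Pw1fl/fl and the other 2 CKO samples PDGFRa Cre+;Pw1 fl/fl. The columns of those 2 samples carry numbers that match no replicate, so they are called CKO a and CKO b. Replicates 1 to 3 of both groups form set 1, and controls 4 to 6 with CKO a and b form set 2, the last by elimination. Because Cre is driven by Pdgfra, the deletion reaches cells that use or have used that promoter, and not one cell type alone. The labels do not say that each library came from its own animal, so p-values measure the spread between these libraries.

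Red cells carry the alpha- and beta-globin chains of haemoglobin, and their young forms still hold globin mRNA after the nucleus is lost. After an infarct, monocytes with high surface Ly6C enter the injured ventricle from the blood and turn into macrophages. CD300 and paired immunoglobulin-like receptors are families of surface receptors on myeloid cells, with activating and inhibitory members encoded by neighbouring and very similar genes. In a bulk preparation, fewer cells of a type and less RNA per cell cannot be told apart.

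The promoters of 5 of the genes are shown so that the letters upstream of the globin pair can be read beside those of the leukocyte genes. Each runs 5′ to 3′ on the gene's own strand, the minus strand in all 5, and ends at the base before a transcript start listed by RefSeq. For Ly6c2 and Cd300ld4 the gene's span reaches 95 and 137 bases further upstream, so part of the stretch shown lies inside the gene. All come from RefSeq on GRCm38.p6, at chr7:103827929-103828078 for Hbb-bs, chr7:103813924-103814073 for Hbb-bt, chr15:75111972-75112221 for Ly6c2, chr11:115026934-115027183 for Cd300ld4 and chr7:3825761-3826010 for Gm15448. In the globin promoters capitals mark the box CCAAT, which reads ATTGG where it lies on the other strand, the box CACCC bound by Kruppel-like factors, and the start-proximal box TATAA. In the other 3 promoters they mark GAGGAAGT, and matches of the globin boxes there are left in lower case.
Hbb-bs: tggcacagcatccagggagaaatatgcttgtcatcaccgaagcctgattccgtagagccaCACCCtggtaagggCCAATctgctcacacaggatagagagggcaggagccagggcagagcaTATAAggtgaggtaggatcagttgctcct
Hbb-bt: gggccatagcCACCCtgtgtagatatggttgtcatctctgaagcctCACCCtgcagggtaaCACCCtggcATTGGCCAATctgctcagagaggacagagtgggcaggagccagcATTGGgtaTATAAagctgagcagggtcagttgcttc
Ly6c2: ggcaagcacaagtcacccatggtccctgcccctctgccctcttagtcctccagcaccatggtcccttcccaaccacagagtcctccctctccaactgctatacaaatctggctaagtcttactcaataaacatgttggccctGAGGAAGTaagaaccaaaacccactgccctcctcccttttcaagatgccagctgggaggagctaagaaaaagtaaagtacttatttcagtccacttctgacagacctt
Cd300ld4: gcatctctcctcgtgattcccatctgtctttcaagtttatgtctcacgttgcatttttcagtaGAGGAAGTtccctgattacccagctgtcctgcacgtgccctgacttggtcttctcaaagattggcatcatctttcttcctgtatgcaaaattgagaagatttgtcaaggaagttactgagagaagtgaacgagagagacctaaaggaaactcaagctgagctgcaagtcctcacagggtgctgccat
Gm15448: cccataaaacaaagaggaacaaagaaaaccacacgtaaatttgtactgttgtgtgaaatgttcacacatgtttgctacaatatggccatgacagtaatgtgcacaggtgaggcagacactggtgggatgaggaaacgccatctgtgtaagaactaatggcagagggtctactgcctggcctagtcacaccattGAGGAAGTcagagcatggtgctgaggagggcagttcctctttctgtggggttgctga

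In Hbb-bs the 3 globin motifs began at bases -90 (CACCC), -76 (CCAAT) and -29 (TATAA) before the start, and Hbb-bt held them at -89, -75 and -28, beside further CACCC and CCAAT copies. Both genes also held GATAAG, the core of the site that GATA factors bind, at -209 and -204, upstream of the stretches printed. The globin boxes were not limited to the globin pair: Cd300ld4 held CCAAT at -128 and CACCC at -12, Ly6c2 held CACCC at -237, and Evi2 held CACCC at -27 and TATAA at -192. In the 250 bases before the start, on either strand, CCAAT was found in 34.5% of the 27025 genes with a promoter in the table, CACCC in 51.3%, TATAA in 23.5% and GATAAG in 6.60%. GAGGAAGT, a purine-rich string that contains the GGAA core of ETS factor sites, was picked after the sequences had been read and so supports nothing. It began at -108 in Ly6c2, -187 in Cd300ld4 and -57 in Gm15448, was found in 2.44% of all promoters, and had no match in the window of Evi2. A match describes the letters and is not evidence of binding.

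Library totals, recovered from the ratio of counts to FPKM, were 20193854 to 20478488 reads in the controls and 20185897 to 20428633 in CKO 1 to 3, and were estimated at 18267978 and 18534124 for CKO a and b. Of 12 lists of cell type markers with 435 symbols, 13 genes were held: the 6 described and 7 others, all from blood cell lists. None of 25 fibroblast, 16 endothelial, 8 mural, 14 cardiomyocyte, 42 neutrophil, 14 platelet or 7 mast cell symbols was held, and neither was Peg3 itself. The fibroblast label and the deletion were therefore not analysed here, and of 42 red cell symbols the globin pair alone was held.

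Hbb-bs, one of the adult beta-globin genes (gene ID 100503605, chr7:103826523-103827928), was present in every library. Its expected count, the number of reads estimated for the gene, was 62.67, 72.25, 76.52, 52.90, 33.66 and 61.12 in controls 1 to 6. It was 219.27, 194.20 and 175.37 in the CKO libraries of set 1, and 389.37 (CKO a) and 451.13 (CKO b) in those of set 2. All 5 CKO libraries lay above all 6 controls, and the 2 CKO libraries of set 2 lay above the 3 of set 1. In CPM, read counts scaled to library size and TMM factor, Hbb-bs stood at 2.62 ± 0.657 in the controls (SD, n = 6) and 17.8 ± 10.2 in the CKO libraries (SD, n = 5).

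Hbb-bt, the second adult beta-globin gene of the same cluster (gene ID 101488143, chr7:103812524-103813923), had far fewer reads. Its expected counts were 11.79, 0, 3.75, 2.45, 8.12 and 2.90 in controls 1 to 6, and 33.43, 11.46, 19.60, 25.62 and 21.67 in CKO 1, 2, 3, a and b. The counts of CKO 2 and control 1 overlapped, and 3 controls lay under the 3 counts taken as the detection floor. After TMM scaling the groups did not overlap, at 0.213 ± 0.195 CPM in the controls (n = 6) and 1.35 ± 0.547 CPM in the CKO libraries (n = 5).

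Ly6c2 encodes a Ly6C surface protein, anchored in the membrane by a lipid, that marks inflammatory monocytes in the mouse (gene ID 100041546, chr15:75108161-75112066). Expected counts in controls 1 to 6 were 1501.09, 1511.70, 1518.49, 1332.42, 1584.56 and 1753.57. The CKO libraries of set 1 gave 1984.88, 1514.34 and 1571.96, within or a little above the control range, while CKO a and b gave 3174.22 and 3149.65. On the CPM scale the groups were apart, at 57.8 to 77.8 in the controls and 78.7 to 225 in the CKO libraries, with CKO 2 at 78.7 next to control 6 at 77.8.

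Cd300ld4, a member of the CD300 family of myeloid receptors (gene ID 100043123, chr11:115003951-115027070), had the largest fitted difference of the 6. Its expected counts were 445.34, 471.05, 561.68, 308.84, 302.17 and 297.83 in controls 1 to 6. The CKO libraries of set 1 had 8.17, 9.59 and 13.95, while 6.89 was found in CKO a and 24.37 in CKO b. Every CKO library lay far below every control, and within the controls the 3 of set 1 lay above the 3 of set 2. Mean levels were 17.4 ± 4.73 CPM (n = 6) and 0.760 ± 0.487 CPM (n = 5).

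Gm15448 has only a predicted-gene name (gene ID 100041146, chr7:3816663-3825760), and its transcript shares sequence with Pirb, the inhibitory paired immunoglobulin-like receptor. Expected counts were 539.54, 597.40, 565.01, 664.42, 571.82 and 579.31 in controls 1 to 6, and 91.93, 86.83, 76.08, 59.19 and 74.94 in CKO 1, 2, 3, a and b. It varied least of the 6 within each group relative to its mean, at 25.6 ± 1.73 CPM (n = 6) in the controls and 4.56 ± 0.511 CPM (n = 5) in the CKO libraries. The groups were apart on every scale used.

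Evi2 is listed by RefSeq as a gene that joins Evi2a and Evi2b, named for a viral integration site in mouse leukaemia (gene ID 101488212, chr11:79513385-79530609). It overlaps both of them and lies within the span of Nf1. The controls ranged widely, with expected counts of 136.93, 248.68, 67.08, 228.00, 263.60 and 105.63. Among the CKO libraries, CKO 1 had 14.19 and CKO 3 had 32.30, and CKO 2, a and b were listed at 0, where a count of 0 allows up to 0.156, 0.213 and 0.201 CPM (3 counts on the TMM scale). The means were 7.65 ± 3.57 CPM (n = 6) and 0.489 ± 0.739 CPM (n = 5).

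**Figure D1:**
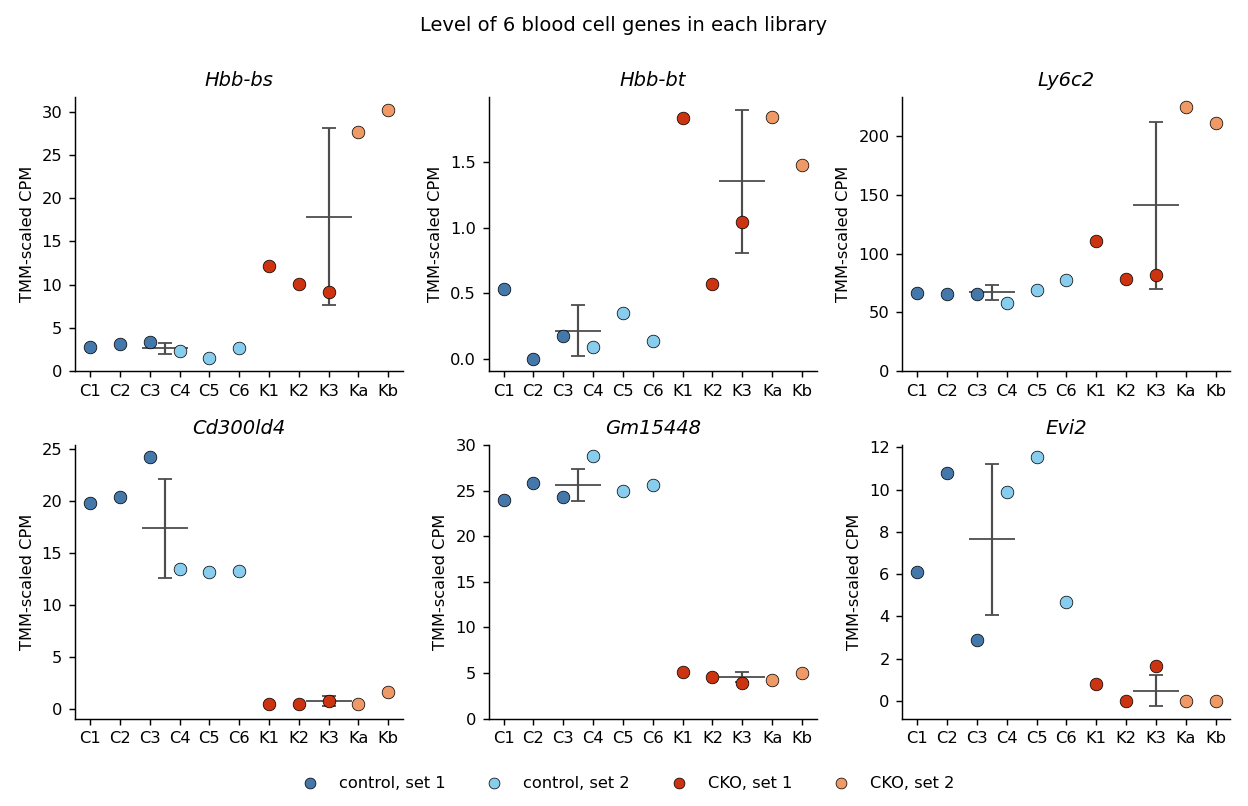
TMM-scaled CPM (vertical axis, linear) of the 6 genes in each library (C, control; K, CKO), 1 panel per gene and 1 point per library coloured by set, with the mean and SD of each group in grey. Hbb-bs, Hbb-bt and Ly6c2 are higher and Cd300ld4, Gm15448 and Evi2 lower in all 5 CKO libraries than in all 6 controls, and for Hbb-bs and Ly6c2 CKO a and b stand above CKO 1 to 3.

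On the CPM scale the 2 groups did not overlap for any of the 6 genes, 3 being higher and 3 lower in CKO. The same held for 434 of the 770 genes tested (56.4%), so separation was common in these libraries. The share of all genes called different at an adjusted p under 0.05 was 71.4%, made up of 34.0% higher and 37.4% lower in CKO, and since the 6 were chosen from this contrast, nothing is read from their own place in it. In expected counts Hbb-bs alone was higher in all CKO libraries, the 3 lower genes were still apart, and Hbb-bt and Ly6c2 overlapped.

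Levels of different genes were compared per length, in TPM, the share of transcripts scaled to a fixed total, over the 6 controls and CKO 1 to 3. Ly6c2 was the highest of the 6 in both groups, at 208.6 ± 15.1 TPM in the controls (n = 6) and 168.8 ± 18.9 TPM in CKO 1 to 3 (n = 3). In the controls Cd300ld4 followed at 54.5 ± 15.1, Gm15448 at 34.1 ± 3.17, Hbb-bs at 10.8 ± 2.76, Evi2 at 4.78 ± 2.25 and Hbb-bt at 0.892 ± 0.805 TPM. The ranges of Hbb-bs and Evi2 overlapped there, as did those of Evi2 and Hbb-bt, and Cd300ld4 and Gm15448 all but touched, at 40.15 and 40.09 TPM. In CKO 1 to 3 the order was Ly6c2, Hbb-bs at 25.97 ± 1.88, Gm15448 at 2.86 ± 0.193, Hbb-bt at 2.86 ± 1.37, Cd300ld4 at 0.960 ± 0.452 and Evi2 at 0.313 ± 0.337 TPM. Gm15448 and Hbb-bt overlapped, and so did Cd300ld4 and Evi2, so Hbb-bs ranked behind Ly6c2, Cd300ld4 and Gm15448 in the controls but behind Ly6c2 alone in CKO 1 to 3.

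The fitted differences between CKO and control depended on the scaling and on the libraries used, to different degrees in the 6 genes. With TMM scaling and a term for the set, the log2 difference was 2.67 (SE 0.34) for Hbb-bs, 2.64 (SE 0.58) for Hbb-bt and 1.01 (SE 0.21) for Ly6c2. It was -4.53 (SE 0.33) for Cd300ld4, -2.48 (SE 0.09) for Gm15448 and -3.94 (SE 0.83) for Evi2. In log2(TPM + 1) over the 9 libraries with TPM, the differences were 0.97 for Hbb-bs, 1.07 for Hbb-bt, -0.29 for Ly6c2, -5.15 for Cd300ld4, -3.15 for Gm15448 and -1.88 for Evi2. These 9 libraries leave out CKO a and b. With TMM over the same 9, the differences were already 1.82 for Hbb-bs, 2.33 for Hbb-bt and 0.51 for Ly6c2. Hbb-bt was 2.28 in log2(TPM + 0.1), so its value also depended on the pseudocount. So did that of Cd300ld4, which was -6.07 there. Evi2 had a mean of 0.313 TPM in CKO 1 to 3, under the pseudocount of 1, which shrinks its fitted difference as well. Within the 9 libraries Ly6c2 still changed sign with the scale, whereas the globin genes stayed higher and the other 3 lower. The median of all genes was -0.06 with TMM over all libraries. Over the 9 libraries it was 0.01 with TMM, -0.32 with the recovered totals and -0.60 in TPM. With the recovered totals Ly6c2 was at 0.17 (SE 0.12), above the median of all genes but within 2 standard errors of 0, and Hbb-bs was at 1.48 (SE 0.19).

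**Figure D2:**
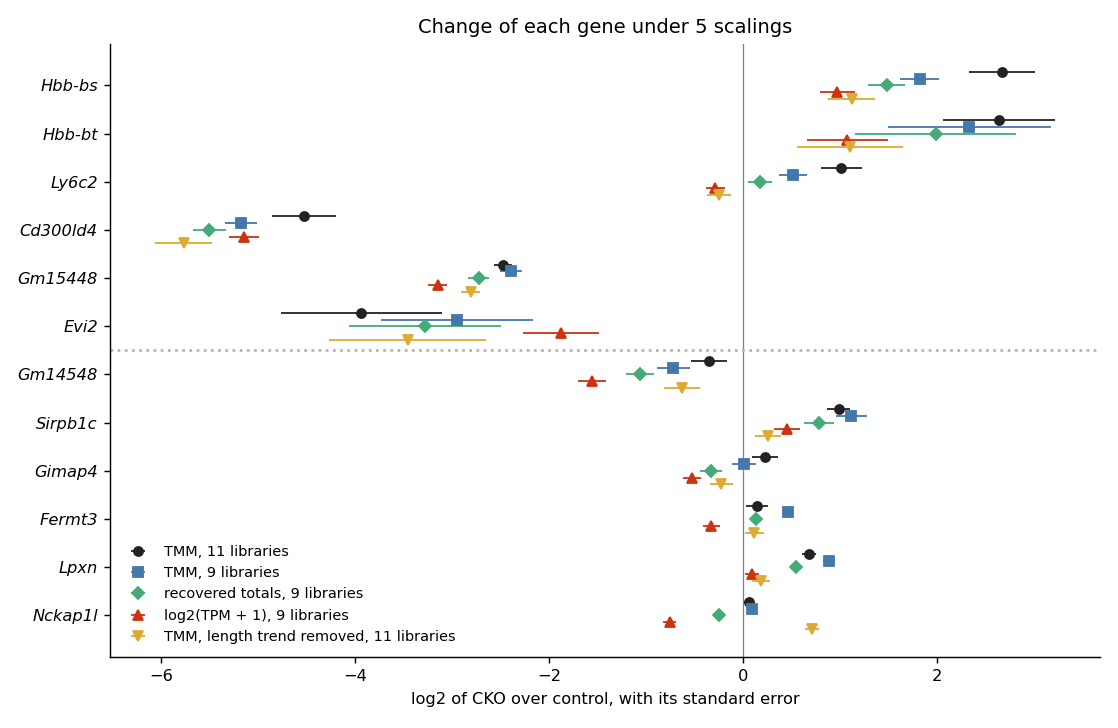
Fitted log2 difference of CKO over control under 5 ways of scaling, with bars of 1 standard error, for the 6 genes (above the dotted line) and the 6 other blood cell genes tested (below it). Ly6c2 runs from 1.01 with TMM over all libraries to -0.29 in log2(TPM + 1), while Hbb-bs stays at 0.97 or higher and Cd300ld4 at -4.53 or lower.

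Transcript length moved with the groups across the whole table, and the 6 genes differ in length. The slope of log2 count on log2 length was 0.66 to 0.75 in the controls, 0.16 to 0.29 in CKO 1 to 3 and close to 0 in CKO a (-0.0069) and CKO b (-0.00095). The mean transcript length of a library was 2167 to 2294 nt in the controls and 1540 to 1675 nt in CKO 1 to 3. Of 51 tested genes with an effective length of up to 1000 nt, 35 were called higher and 6 lower, with a median log2 difference of 1.47. Of 207 genes over 4000 nt, 14 were called higher and 151 lower, with a median of -0.73.

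Hbb-bs (603.2 nt), Hbb-bt (594.6 nt), Ly6c2 (801.4 nt) and Cd300ld4 (797.0 nt) belong to the shortest class. Gm15448 (1878.5 nt) lies in the class of 1000 to 2000 nt, with a median of 0.56, and Evi2 (4001.9 nt) falls just inside the longest. Cd300ld4 and Gm15448 thus differed in the direction opposite to the median of their length class, and the globin genes and Evi2 in the same direction. When the trend with length was removed within each library, Hbb-bs stood at 1.12 (SE 0.25), Hbb-bt at 1.10 (SE 0.55), Ly6c2 at -0.25 (SE 0.12), Cd300ld4 at -5.76 (SE 0.29), Gm15448 at -2.81 (SE 0.10) and Evi2 at -3.46 (SE 0.81). What part of the raw differences came with the length trend was not tested beyond these values.

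**Figure D3:**
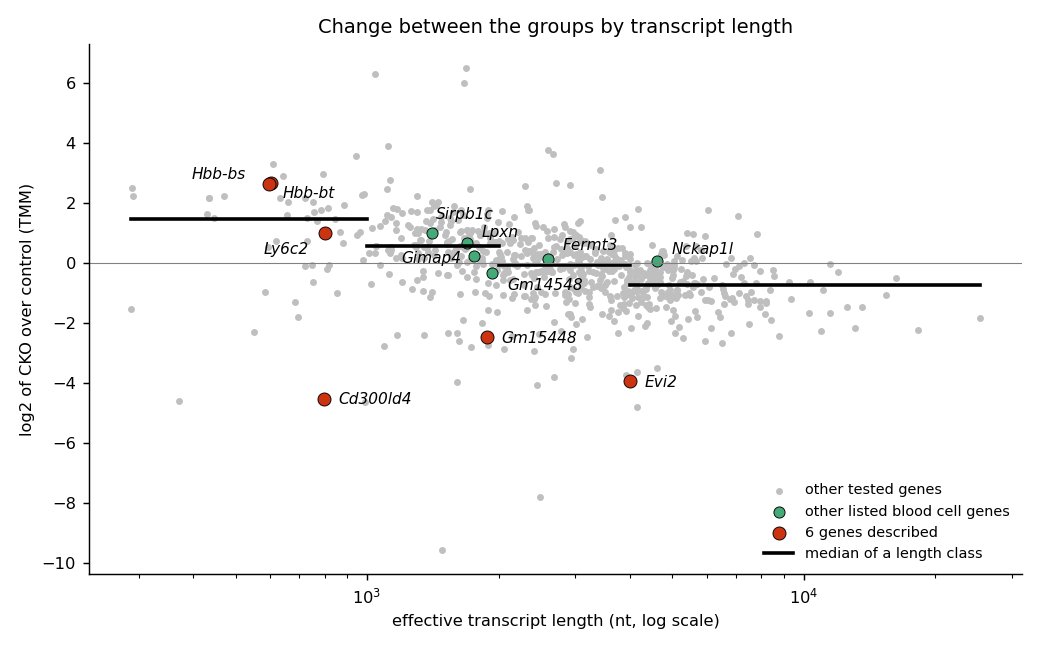
Fitted log2 difference of CKO over control against the effective transcript length on a log axis, for all tested genes with a length (grey), the 6 genes (red) and the other listed blood cell genes (green), with the median of each length class as a black line. Genes of up to 1000 nt have a median of 1.47 and genes over 4000 nt a median of -0.73; Hbb-bs and Hbb-bt lie above the bulk of short genes and Cd300ld4 far below it.

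Near-identical copies limit how far reads can be given to one of these genes. In the GENCODE transcript nearest to its effective length, 86.7% of the 100-nt windows of Cd300ld4 also occurred in Cd300ld5, its neighbour in the receptor cluster, and 67.6% in Cd300ld3. Of the windows of Hbb-bs, 62.6% occurred in Hbb-bt, and of those of Hbb-bt 54.8% occurred in Hbb-bs. Evi2 shared 54.0% of its windows with other genes, mostly with Evi2b (45.1%), while Gm15448 shared 35.9%, led by Pirb (11.7%). Ly6c2 shared 15.8%, all with Ly6c1, a symbol of the endothelial list. Cd300ld3, Evi2a, Evi2b, Pirb and Ly6c1 were not in the part of the table held, so their counts could not be compared. With windows of 50 nt the shares of the 6 genes were higher, most of all for Ly6c2 (33.0%) and Gm15448 (63.0%). No window of Gimap4, Fermt3, Lpxn or Nckap1l, other leukocyte genes in the table, was shared with another gene.

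**Figure D4:**
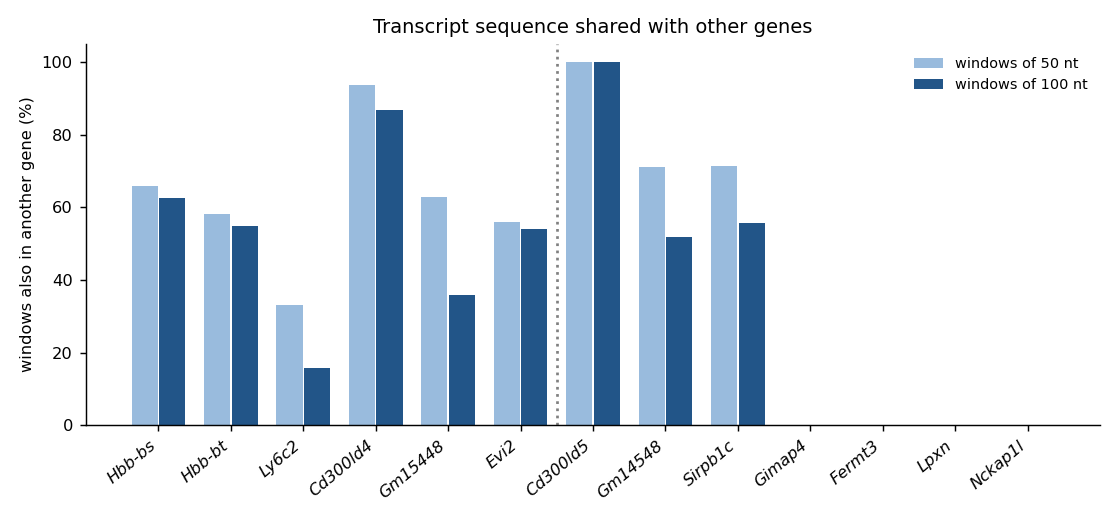
Percent of the windows of 100 nt and of 50 nt in each gene's transcript that also occur in a transcript of another gene. Cd300ld4 stands at 86.7% and its copy Cd300ld5 at 100% for 100-nt windows, Ly6c2 at 15.8%, and the single-copy leukocyte genes at 0.

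Cd300ld5 was in the table and ran the other way from Cd300ld4 in set 1. It was listed at 0 in controls 1 to 5 and had 38.41 expected counts in control 6, against 104.98, 23.62 and 59.93 in CKO 1 to 3, 0 in CKO a and 5.09 in CKO b. Summed over both copies, the expected counts were 302 to 562 in the controls and 113.15, 33.21, 73.88, 6.89 and 29.46 in CKO 1, 2, 3, a and b. The pair was still apart between groups, at 17.6 ± 4.48 CPM (n = 6) and 2.87 ± 2.26 CPM (n = 5), and the log2 difference of the sum was -2.81 against -4.53 for Cd300ld4 alone. Cd300ld4 held 88.6% to 100% of the summed counts in the controls, 7.22% to 28.9% in CKO 1 to 3, 100% in CKO a and 82.7% in CKO b. The sum leaves out Cd300ld3, which was not held. How the authors' counting divided reads between the copies was not tested.

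Gm14548, which shares 51.9% of its windows with other genes, mainly Pira2 (41.4%), an activating paired immunoglobulin-like receptor, was the closest held relative of Gm15448. Its level was 68.4 ± 5.04 CPM in the controls (n = 6) and 54.9 ± 24.5 CPM in the CKO libraries (n = 5), with overlap. The sum of Gm15448 and Gm14548 was 94.0 ± 6.66 CPM (n = 6) in the controls and 59.5 ± 24.6 CPM (n = 5) in CKO, also with overlap, and the log2 difference of the sum was -0.69. Gm15448 gave 26.3% to 27.8% of the summed counts in the controls and 4.68% to 12.4% in the CKO libraries. The summed globin pair stood at 2.83 ± 0.62 CPM (n = 6) and 19.2 ± 10.5 CPM (n = 5), apart as for each gene alone.

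**Figure D5:**
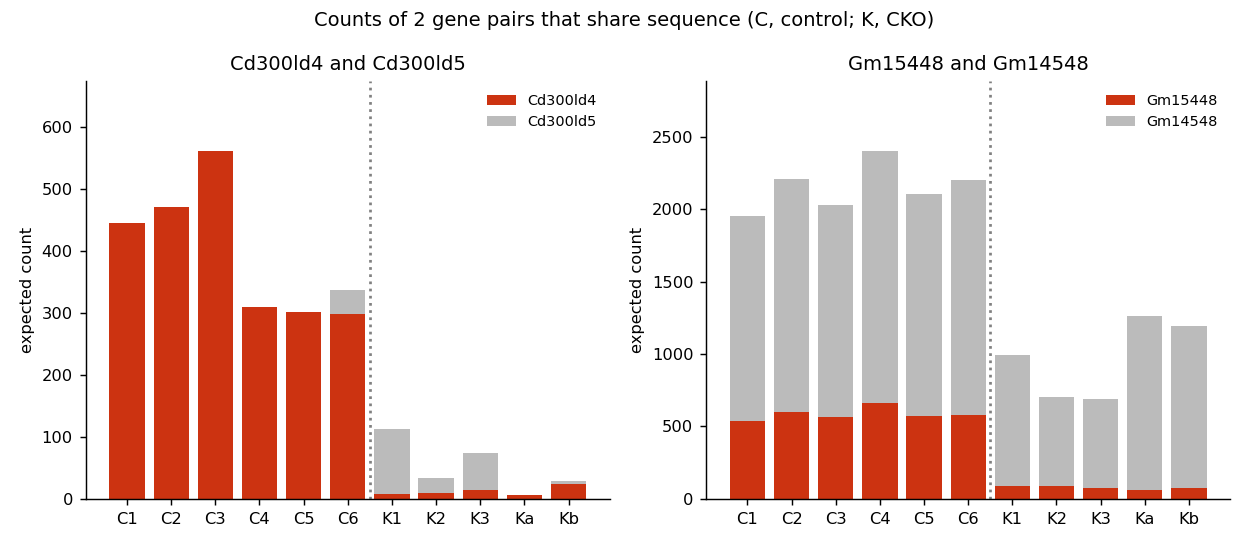
Expected counts of Cd300ld4 with Cd300ld5 and of Gm15448 with Gm14548, stacked in each of the 11 libraries (C, control; K, CKO). The Cd300 sum is 302 to 562 in the controls and 6.89 to 113.15 in the CKO libraries, and most of the reads of CKO 1 to 3 are on Cd300ld5.

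The table also held 7 other blood cell genes of the lists, which were chosen with earlier results of these data known. Of the 6 that could be tested, 2 were called, both higher, in a table where 71.4% of genes were called, and their median log2 difference was 0.18 against -0.06 for all genes. Sirpb1c, a signal-regulatory receptor of myeloid cells, rose by 0.98 (SE 0.12, adjusted p = 2.7e-05 in edgeR's quasi-likelihood test with Benjamini-Hochberg adjustment). Lpxn, the adaptor leupaxin of leukocyte adhesion sites, rose by 0.68 (SE 0.08, adjusted p = 1.5e-05 in the same test). Both were higher in all 5 CKO libraries than in all 6 controls on the CPM scale, but overlapped in expected counts and in TPM. In TPM Lpxn stood at 197.6 ± 24.0 in the controls (n = 6) and 189.6 ± 10.8 in CKO 1 to 3 (n = 3). Sirpb1c stood at 38.7 ± 7.52 and 47.8 ± 2.42 TPM in the same groups. Both calls were lost with the length trend removed (adjusted p = 0.10 for Sirpb1c and 0.0967 for Lpxn in edgeR). Sirpb1c shares 55.7% of its 100-nt windows with other genes, chiefly Sirpb1b (43.4%).

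Nckap1l, the blood cell subunit of the actin-regulating WAVE complex, stood at 403 ± 25.6 CPM in the controls (n = 6) and 422 ± 17.2 CPM in CKO (n = 5), a log2 difference of 0.06 (adjusted p = 0.283 in edgeR). Fermt3, the integrin activator kindlin-3 of blood cells, differed by 0.14 (adjusted p = 0.267 in the same edgeR test). Gimap4, a GTPase of lymphocytes, differed by 0.22 (adjusted p = 0.150) and Gm14548 by -0.35 (adjusted p = 0.114), also in edgeR. Gm14548 was followed as a copy after its values were seen, so its p-values are a description. The calls on the other blood cell genes depended on the libraries used and on the scaling. With TMM over the 9 libraries without CKO a and b, 5 of 7 were called, 4 higher and 1 lower. In that fit 536 of 802 genes were called. Over the same 9 libraries, 6 of 7 were called with the recovered totals, 3 in each direction, where 67.0% of all genes were called. In log2(TPM + 1) 6 of 7 were called, 2 higher and 4 lower, where 79.0% of all genes were. In TPM Nckap1l fell by 0.76 and with the length trend removed it rose by 0.71, so no direction is given for it.

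The 2 sets of libraries allow comparisons within the controls and within the CKO libraries, which did not choose the 6 genes. Between control set 2 and control set 1, 70 of 770 genes (9.09%) passed the test (3.9% up and 5.19% down in set 2), and Cd300ld4 was the 1 member among them. It was 0.69 lower on the log2 scale in set 2 (SE 0.19, adjusted p = 0.0455 in edgeR), at 13.2 to 13.4 CPM against 19.8 to 24.2 CPM. All 3 controls of set 2 lay below all 3 of set 1. The call rested on the libraries used, since it was made in 4 of 11 fits that each left out 1 library (adjusted p = 0.00865 to 0.178), and it was lost without any 1 of the 6 controls and without CKO 2. The size of the difference moved little in those fits, from -0.74 to -0.59. The call was also lost in edgeR with the recovered and estimated totals (adjusted p = 0.0569) and with the length trend removed (adjusted p = 0.0735). The labelled genotype of the controls differs between the sets and cannot be told apart from the set.

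Among the other 5 genes the control sets gave log2 differences of -0.51 for Hbb-bs (adjusted p = 0.146), 0.05 for Ly6c2 (adjusted p = 0.865), 0.10 for Gm15448 (adjusted p = 0.619), -0.29 for Hbb-bt (adjusted p = 0.90) and 0.41 for Evi2 (adjusted p = 0.764), all in edgeR. None passed the threshold, which does not show that the sets were alike. Without 1 library at a time, Evi2 ranged from 0.05 (without control 3) to 0.97 (without control 2), and Hbb-bs from -0.68 (without control 6) to -0.29 (without control 5).

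Between the CKO sets, 378 of 770 genes (49.1%) passed the test (21.4% up and 27.7% down in set 2), and 2 of the 6 members were among them. Hbb-bs rose by 1.47 in CKO a and b relative to CKO 1 to 3 (SE 0.18, adjusted p = 0.000194 in edgeR), at 27.6 and 30.2 CPM against 9.10 to 12.2 CPM. Ly6c2 rose by 1.27 (SE 0.14, adjusted p = 0.000124 in edgeR), at 225 and 211 CPM against 78.7 to 110.5 CPM. Both were called in each of 11 fits without 1 library, with the recovered and estimated totals and with the length trend removed, where the differences were 0.93 for Hbb-bs and 0.82 for Ly6c2. A count of 2 of 6 members is no larger a share than the 49.1% of the whole table.

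Hbb-bt differed by 0.53 (adjusted p = 0.564 in edgeR) and Gm15448 by 0.03 (adjusted p = 0.898). Cd300ld4 differed by 0.90 (adjusted p = 0.0892 in edgeR), a value that rests on CKO b, without which it was -0.21. Evi2 was listed at 0 in both CKO libraries of set 2 and in CKO 2, so no fold is given; edgeR's adjusted p was 0.0924 and DESeq2's 0.00685. DESeq2, which called 49.0% of all genes, also called Cd300ld4 (adjusted p = 0.0353). Of the other blood cell genes, Gm14548 rose by 1.07 (adjusted p = 0.000519), Gimap4 rose by 0.56 (adjusted p = 0.00688) and Fermt3 fell by 0.81 (adjusted p = 9.0e-05) in edgeR. The call on Gimap4 was lost without CKO a, at 0.42 (adjusted p = 0.0858 in edgeR). Those on Gm14548 and Fermt3 were made in all 11 fits without 1 library. Because Gm14548 was followed as a copy after its values were seen, its p-value is a description. The difference between the sets' CKO effects is built from the same CKO and control values as the contrast that chose the 6 genes. For these genes it is given as a description, without a test. The log2 effect was larger in set 2 than in set 1 by 1.975 for Hbb-bs and 1.2194 for Ly6c2. For Cd300ld4 the difference was 1.59, but 0.48 without CKO b. CKO a and b also had the flattest slope of counts on length, and how much of these differences goes with it was not tested beyond the values above.

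Across the 11 libraries the 6 genes formed opposed patterns, as their choice from 1 contrast implies, and correlations of log2(CPM + 1) are given as a description of points that share libraries and depth. Hbb-bs ran with Hbb-bt (Pearson's r = 0.87) and Ly6c2 (r = 0.91), and Cd300ld4 ran with Gm15448 (r = 0.98) and Evi2 (r = 0.86). Among 612 other genes the patterns nearest to Hbb-bs were those of Macrod1, Brms1 and Sharpin (r = 0.99 each), and 129 genes had r of at least 0.9 with it. The nearest to Hbb-bt were LOC102638888, Hsd3b7 and Tm6sf2 (r = 0.95 each), and those nearest to Ly6c2 were Pld4, Ints4 (both 0.98) and Ddx1 (0.97). Cenpf, Eprs (both 0.99) and Ift140 (0.98) were nearest to Cd300ld4, and LOC100862473, Lrrc8c and AI467606 (all 0.99) to Gm15448. Evi2 had the fewest close companions, with Spty2d1 at 0.95, Stk38 at 0.93, Tasor2 at 0.92 and 33 genes at 0.9 or more.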

How the data were processed

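The authors' deposited table gives TPM, FPKM and expected counts per gene and library, per the file headers, and was held in part. The submitters' processing notes name Bowtie2, RSEM, DESeq2 and the build GRCm38; versions are not given in the sources used here. The deposited expected counts are estimates that need not be whole and were rounded before any test. The authors' TPM and FPKM were used where a column matched 1 sample. CKO a and b have counts alone here: their 4 TPM and FPKM columns of 33 value columns match a group but no single sample, so they were not used. Complete lines held 1293 genes; the 152 with a blank cell were dropped, which left 1141.

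The main test was edgeR's 2-sided quasi-likelihood F test (edgeR 4.0.16, R 4.3.3; TMM, filterByExpr, Benjamini-Hochberg over the 770 genes tested, called at adjusted p under 0.05). The model held group and label set, and comparisons between sets used a model of the 4 group-by-set means. Levels in CPM are TMM-scaled, log2(TPM + 1) was fitted in limma 3.58.1, and DESeq2 1.42.0 was an alternative. Effective length was computed from the ratio of counts to FPKM in controls with a mean FPKM of at least 0.2, and the length trend was removed by loess offsets (span 0.5). TMM factors were 1.11 to 1.14 in the controls and 0.772 to 0.947 in the CKO libraries. For CKO a and b, totals were estimated by dividing their reads in the table by 2.93%, the average share of reads that the table covered in the other CKO libraries. Floors cover counting error alone. Standard errors of the edgeR fits were computed from the log2 difference and its F statistic, so they include the spread between libraries. Shared windows were searched among GENCODE mouse transcripts, and promoters and gene positions came from RefSeq tables on GRCm38.p6.

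The genes described, the 12 lists and the alternatives were chosen with earlier results of these data known. Named were all 6 genes, up to 6 tested genes of each list by mean CPM, and the 3 genes of nearest pattern; held copies of the 6 and the genes among the other observations were added after their values were seen. Replicate numbers are shared by CKO and control in set 1, but the correlations of same-numbered deviations were 0.0977, 0.0254 and 0.229, so the numbers were not taken to pair the libraries.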

Additional observations from a re-analysis of the deposited data

Results flagged for a closer look

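In 26 groups of library values looked at, 2 had a library far from the rest, by a rule that chance meets in about 1 in 20 groups. The count is near that share. Cd300ld4 in CKO b, at 1.61 CPM against 0.445 to 0.728 CPM in the other 4 CKO libraries, was separated by a gap of 0.757 of the group's range. Cd300ld5 in control 6, at 1.69 CPM against 0 in the other 5 controls, had a gap of 1.0 of the range, which any value above 0 would give there.

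The difference between CKO and control was flagged as different in the 2 label sets for 7 of the genes described. The interaction in edgeR, with Benjamini-Hochberg adjustment over all genes, called 323 of 770 genes (41.9%). The members among the 7 were chosen from CKO and control values that enter it, so theirs are a description, without a test. The log2 effect was larger in set 2 than in set 1 by 1.975 for Hbb-bs, from 1.76 to 3.74, and by 1.2194 for Ly6c2, from 0.46 to 1.67. For Cd300ld4 it was less negative in set 2 by 1.594, at -3.63 against -5.23, and the gap fell to 0.48 without CKO b. Among the other blood cell genes the gap between the effects (set 2 less set 1) came to 0.9431 for Gm14548 (adjusted p = 0.00719), 0.6103 for Gimap4 (adjusted p = 0.0257), -0.6018 for Fermt3 (adjusted p = 0.0018) and -0.3319 for Lpxn (adjusted p = 0.0172). The call on Gimap4 was lost without control 3, control 4, CKO 2, CKO 3 or CKO a (0.46 to 0.59) and that on Lpxn without CKO b (-0.25). For Gm14548 and Fermt3 the effects within the sets had opposite signs. They were -0.78 and 0.16 for Gm14548 and 0.40 and -0.20 for Fermt3. The p-value of Gm14548 is a description too, since this copy was followed after its values were seen.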

How the results depend on the processing

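For Hbb-bs the log2 difference of CKO over control, 2.67 as reported, was 1.75 in set 1 alone and the same with the replicate block, 3.73 in set 2 alone, 1.82 with TMM over the 9 libraries with a recovered total, 1.48 with the recovered totals, 1.12 with the length trend removed, 0.97 in log2(TPM + 1) and 1.02 in log2(TPM + 0.1). Under the same alternatives Hbb-bt was 2.26 (2.41 with the replicate block), 3.08, 2.33, 1.98, 1.10, 1.07 and 2.28, and 2.25 with totals for all libraries. Ly6c2 was 0.45 in set 1 alone, 0.43 with the replicate block, 1.67 in set 2 alone, 0.51 with TMM over 9 libraries, 0.17 with the recovered totals, and reversed to -0.25 with the length trend removed and to -0.29 with either TPM pseudocount. Cd300ld4 was -5.24 in set 1 alone with or without the replicate block, -3.64 in set 2 alone, -5.17 with TMM over 9 libraries, -5.50 with the recovered totals, -4.90 with totals for all libraries, -5.76 with the length trend removed, -5.15 and -6.07 in TPM with either pseudocount, and -2.81 summed with Cd300ld5. Gm15448 was -2.73 with the recovered totals, -2.86 with totals for all libraries, -2.81 with the length trend removed, -3.15 and -3.50 in TPM and -0.69 summed with Gm14548. Evi2 was -4.86 in DESeq2, -3.01 in set 1 alone, -2.93 with the replicate block, -2.95 with TMM over 9 libraries, -1.88 in log2(TPM + 1) and -10.41 in set 2 alone, where both CKO libraries are at 0 and the value depends on the prior count.

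The other blood cell genes called numbered 5 in set 1 alone with or without the replicate block, 5 with TMM over 9 libraries, 6 with the recovered totals, 4 with totals for all libraries and 6 in TPM with either pseudocount, against 2 as reported. Calls over all genes were 262 higher and 288 lower as reported, and 272 and 264 with TMM over 9 libraries. They were 177 and 360 with the recovered totals, 189 and 397 with totals for all libraries, and 91 and 461 in log2(TPM + 1). In set 1 alone, 479 genes were called with the replicate block and 499 without it. Gm15448 between the CKO sets, 0.03 as reported, reversed to -0.0076 with no filter, -0.20 with totals for all libraries and -0.0585 with the length trend removed.

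Leaving out each library in turn gave 521 to 564 calls between CKO and control, 267 to 427 between the CKO sets, 22 to 155 between the control sets and 2 to 3 other blood cell genes called. The count of 70 between the control sets fell to 26 without control 1, 33 without control 2, 23 without control 3, 26 without control 5 and 22 without control 6, and was 155 without CKO 1. Over the same fits Hbb-bs was 2.47 to 2.83, Hbb-bt 2.38 to 3.29, Ly6c2 0.91 to 1.16, Cd300ld4 -5.10 to -4.34, Gm15448 -2.52 to -2.41 and Evi2 -5.14 to -3.53. Between the control sets Hbb-bt ranged from -1.04 to 1.09, reversing without control 1 or 4, and Ly6c2 from -0.0342 (without control 6) to 0.16. Between the CKO sets Cd300ld4 ranged from -0.21 to 1.504 and Gm15448 from -0.13 to 0.16. The causes were not tested.

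Hbb-bt and the CKO values of Cd300ld4 and Evi2 rest on few reads, and the part of the table held has no other red cell gene. Alpha-globin, fibroblast and neutrophil markers were not analysed here.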

Other observations

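Further genes with known blood, vessel or muscle roles were named after their values were seen, so they carry no test. Chil4, a chitinase-like protein of myeloid cells, stood at 0 to 0.174 CPM in the 6 controls and 1.46 to 5.81 CPM in the 5 CKO libraries. Wfdc17, a secreted protein of macrophages, was 70.1 to 111 CPM in the controls and 213 to 413 CPM in CKO, a log2 difference of 1.62 with TMM but -0.24 with the length trend removed. In TPM Wfdc17 remained higher, at 427.32 to 650.89 in the controls and 786.23 to 928.5 in CKO 1 to 3. Pld4, a nuclease of myeloid cells whose pattern was nearest to that of Ly6c2, was 147 to 170 CPM in the controls, 163 to 234 CPM in CKO 1 to 3 and 324 and 384 CPM in CKO a and b. Its log2 difference was 0.70 with TMM over all 11 libraries. It was 0.05 with the recovered totals and -0.42 in log2(TPM + 1), both over the 9 libraries without CKO a and b. Akna, a DNA-binding protein of lymphocytes, ran the other way, at 18.8 to 26.3 CPM in the controls and 8.15 to 14.3 CPM in CKO. Its log2 difference was -1.07 with TMM, -1.32 with the recovered totals over those 9 libraries and -0.32 with the length trend removed. Gpsm3, a G-protein regulator of leukocytes, was at 24.3 to 29.7 CPM in the controls and 38.5 to 55.1 CPM in CKO, with a log2 difference of 0.76 with TMM and -0.04 with the length trend removed.

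Among genes of endothelial cells, Mmrn2 differed by -0.47 with TMM and -1.14 with the recovered totals, and Adcy4 by 0.65 and -0.11. Srl, a calcium store protein of striated muscle, was at 1.91 to 2.75 CPM in the controls and 1.27 to 1.40 CPM in CKO. Its log2 difference of -0.79 with TMM lay near the median of -0.73 for its length class, over 4000 nt. Ankrd1, a stress-responsive protein of heart muscle, was at 7.96 to 9.73 CPM and 5.53 to 8.31 CPM. Its log2 difference was -0.30 with TMM, where its length class of 1000 to 2000 nt had a median of 0.56. Their part in the values of the blood cell genes was not tested.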
